A study of Xenopus allofraseri with 8 samples.

Results

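The myosin-binding protein C transcripts of *Xenopus allofraseri* leg muscle are described here through 2 assembled genes, *mybpc2* (TR20986|c1_g1) and LOC108697262 (TR3354|c4_g2), among the 163981 genes that the assembler Trinity built from the study's pooled reads. A Trinity gene is a group of assembled sequences that share stretches, and its members are called isoforms below. All 4 isoforms of *mybpc2* and all 8 of LOC108697262 were taken, 12 of 218541 transcripts in all. Both genes were chosen by the fold change and FDR of edgeR's exact test between the groups, in which 1 isoform of each, i2 of *mybpc2* and i4 of LOC108697262, was called as higher in burst-performant frogs. The endurant against burst-performant values of every isoform and total are therefore a description, and no call of a member by any test counts as support. The abundance tables carry no gene names. Both symbols come from the study's own annotation, in which both called isoforms matched fast-type myosin-binding protein C.

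The data came from 8 wild-caught adult males from a single pond, each with 1 polyA RNA library from the knee extensors of its right leg. The males classed as endurant were A, D, E, G, and those classed as burst-performant B, C, F, H. The study formed these groups by clustering the frogs on 4 performance traits, namely the distance and time of movement until exhaustion and the peak speed (velocity) and acceleration of a swimming burst. No frog was treated, no genotype, age or sampling batch is given in the sources used here, and all 8 males share species, pond and housing. Libraries held between 4449192 and 17359253 estimated counts. After rounding, frogs C and D held 9119271 and 4715086 counts. This was a far smaller part of the read pairs that the study reported for them than in any other frog, and the cause was not tested.

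Myosin-binding protein C is a thick-filament protein of the sarcomere, the contractile unit of striated muscle. It sits in the C-zones on either side of the middle of the filament, binds myosin and actin, and tunes how myosin heads reach the thin filament. Vertebrates have a slow skeletal, a fast skeletal and a cardiac form, and *mybpc2* is the fast skeletal one, known for its place in fast-twitch fibres. African clawed frogs of the genus *Xenopus* include polyploid species, in which 1 ancestral gene can persist as several copies called homoeologs. The study describes *X. allofraseri* as allotetraploid and proposes that its dissimilar called *mybpc2* transcripts come from homoeologs. Whether *mybpc2* and LOC108697262 are homoeologs of each other was not tested here.

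Both genes were abundant in this muscle by summed TPM. By mean TPM (a level relative to the whole library and corrected for length) over the 8 frogs, LOC108697262 ranked 192 with 583 TPM and *mybpc2* ranked 220 with 529 TPM among the 163981 genes. Each value is a sum over isoforms, in which short ones weigh more. In frog A, *mybpc2* i3 had 627 TPM from 1259 estimated counts, and the longer i1 had 68.3 TPM from 405. Whether such isoforms are fragments of 1 message, which a sum would count more than once, was not tested. Levels below are otherwise in CPM, estimated counts relative to library size, scaled with edgeR's TMM factors and not corrected for length, so they compare frogs and not isoforms. In bulk muscle, fewer cells of a type and less RNA per cell cannot be told apart.

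The assembled isoforms of *mybpc2* were short, with 692 bases in i1, 263 in i2, 350 in i3 and 234 in i4. Those of LOC108697262 measured 1002 bases in i2 and 1051 in i4, and between 245 and 324 bases in i1, i3, i5, i6, i7 and i8. Whether the isoforms of a gene are splice forms, homoeologs, alleles or fragments of 1 message was not tested. A gene total below sums only these assembled isoforms. Whether they cover the whole message, or parts of it lie in other Trinity genes, was not tested either. In Kallisto, read pairs that match several isoforms are shared among them, so that an isoform's count is an estimate and a gene total is less affected by that sharing.

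The *mybpc2* isoform i2 was present in burst-performant muscle and next to absent in endurant muscle. It had 1.05, 0, 0 and 1.06 estimated counts in endurant frogs (A, D, E, G), against 374, 240, 159 and 152 in burst-performant frogs (B, C, F, H). Scaled for depth, it had 0.121, 0, 0 and 0.091 CPM in the endurant frogs, against 28.8, 34.1, 10.1 and 42.5 CPM in the burst-performant frogs. Every burst-performant frog therefore lay far above every endurant frog, and frog F was the lowest of its group. The group means were 0.053 ± 0.063 CPM in endurant frogs and 28.9 ± 13.7 CPM in burst-performant frogs (SD, n = 4 each).

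Pooled within each group and rounded, i2 had 2 counts in the endurant libraries and 925 in the burst-performant ones. Allowing for depth, the burst-performant level was 474 times the endurant level, with an exact 95% interval from 131 to 3921 that covers counting error only. The ratio was between 422 and 654 with any burst-performant frog left out. The fitted log2 fold change was −8.80 (SE 0.90, endurant minus burst-performant), a value that depends on the prior count because the endurant libraries together held only 2 counts.

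The share of the *mybpc2* counts that i2 held was 0.063, 0, 0 and 0.051% in endurant frogs (A, D, E, G), against 23.1, 31.1, 7.49 and 11.7% in burst-performant frogs (B, C, F, H). Zero counts of i2 among the rounded *mybpc2* counts allow a share of up to 0.428% in frog D, which had 701 such counts, and up to 0.104% in frog E, which had 2893. The exact 95% intervals, which cover counting error only and take shared read pairs as independent, were 6.41 to 8.69% in frog F, 9.97 to 13.5% in frog H, 21.1 to 25.2% in frog B and 27.8 to 34.5% in frog C. By TPM, which gives a short isoform more weight, i2 held 0.056 ± 0.066% of the gene in endurant frogs and 32.1 ± 12.9% in burst-performant frogs (SD, n = 4 each).

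**Figure D1:**
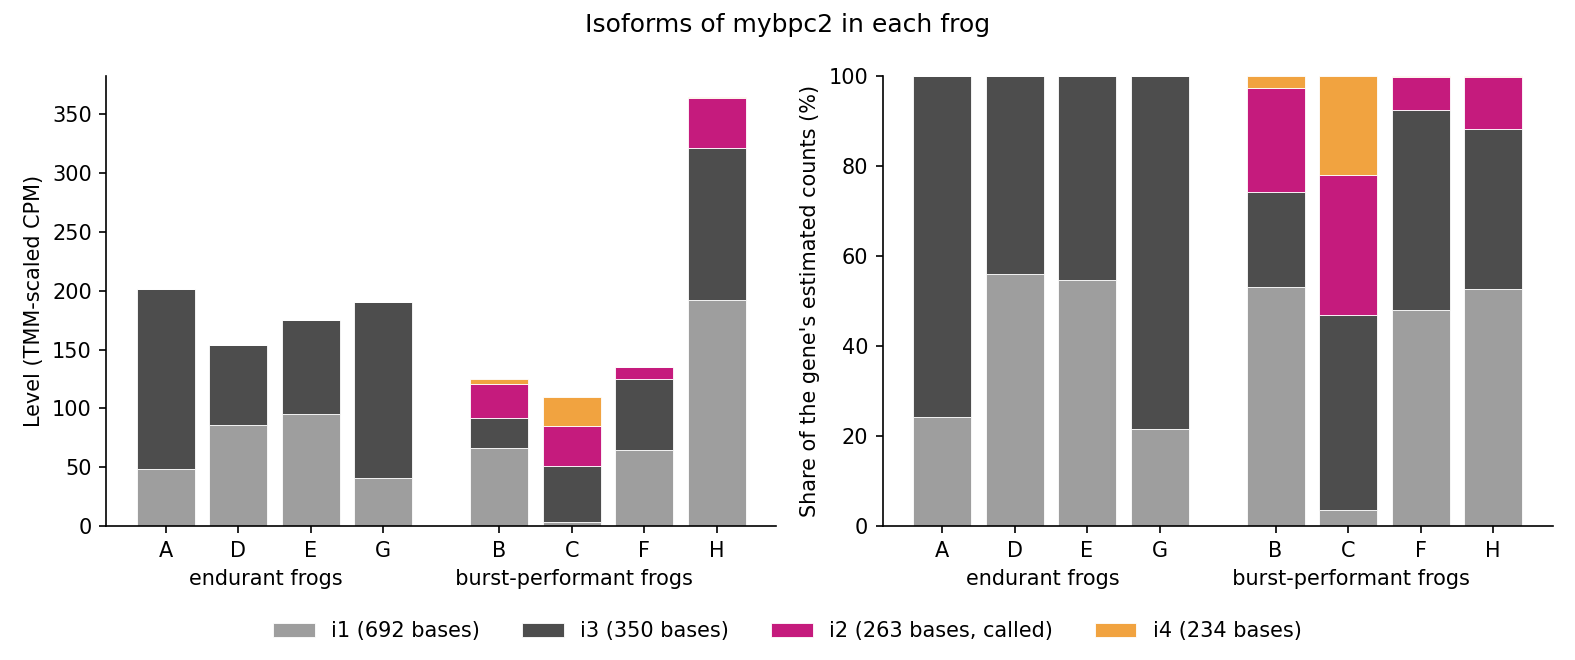
Bars stack the 4 isoforms of *mybpc2* in each frog, endurant frogs on the left of each panel, as TMM-scaled CPM in the left panel and as a percentage of the gene's estimated counts in the right panel. Isoform i2 held 7.49 to 31.1% in the burst-performant frogs and at most 0.063% in the endurant frogs, and i4 was large in frog C alone.

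The shortest isoform, i4, had the same order of groups, but its level rested mainly on 1 frog. It had 1.26, 0, 0 and 1.32 estimated counts in endurant frogs (A, D, E, G), against 44.7, 170, 4.05 and 2.80 in burst-performant frogs (B, C, F, H). In CPM these were 0.121, 0, 0 and 0.091 in the endurant frogs, against 3.46, 24.1, 0.255 and 0.838 in the burst-performant frogs. The groups did not overlap, yet frogs F and H were within a few counts of the endurant frogs. A count of 0 in frog D allows up to 0.659 CPM, above the 0.255 CPM of frog F. The separation is therefore not shown beyond that limit. The pooled burst-performant level was 114 times the endurant level (exact 95% interval 31.1 to 946), and 32.5 times (8.55 to 275) without frog C. Both intervals cover counting error only and leave out the spread between frogs. The fitted log2 fold change of i4 was −6.78 (SE 1.70). Isoform i4 was not called by edgeR's exact or quasi-likelihood test and was called by DESeq2.

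The longer isoforms i1 and i3 made up nearly all of *mybpc2* in endurant frogs. Together they held 99.9, 100, 100 and 99.9% of the gene's counts in endurant frogs (A, D, E, G), against 74.1, 46.9, 92.3 and 88.1% in burst-performant frogs (B, C, F, H). Isoform i3 had 152, 67.7, 79.0 and 149 CPM in the endurant frogs, against 26.3, 47.6, 59.8 and 129 CPM in the burst-performant frogs. The groups overlapped through frog H, with means of 112 ± 44.9 and 65.7 ± 44.5 CPM in endurant and burst-performant frogs (SD, n = 4 each), and the fitted log2 fold change was 0.77 (SE 0.52).

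Isoform i1 had 49.0, 86.4, 95.6 and 41.0 CPM in endurant frogs (A, D, E, G), against 66.1, 3.84, 64.9 and 192 CPM in burst-performant frogs (B, C, F, H). Both the lowest and the highest value belonged to burst-performant frogs, C and H, and the fitted log2 fold change was −0.26 (SE 0.86). The balance of i1 and i3 also split the endurant frogs. Isoform i1 held 24.3 and 21.6% of the gene in frogs A and G, but 56.1 and 54.8% in frogs D and E.

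By TPM the share of i3 separated the groups, with 80.2 ± 11.6% of the gene in endurant frogs and 40.6 ± 16.3% in burst-performant frogs (SD, n = 4 each). By counts it did not, with shares of 75.5, 43.9, 45.24 and 78.3% in endurant frogs (A, D, E, G), against 21.1, 43.4, 44.3 and 35.5% in burst-performant frogs (B, C, F, H). Endurant frog D, at 43.9%, lay below burst-performant frog F, at 44.3%.

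The *mybpc2* total did not separate the groups. It was 202, 154, 175 and 190 CPM in endurant frogs (A, D, E, G), against 125, 110, 135 and 364 CPM in burst-performant frogs (B, C, F, H). Frog H alone was higher than every endurant frog, and the other 3 burst-performant frogs were lower than every endurant frog. The means were 180 ± 20.6 CPM in endurant frogs and 183 ± 121 CPM in burst-performant frogs (SD, n = 4 each). The fitted log2 fold change was −0.04 (SE 0.40), and its sign was not stable, with 0.56 without frog H and 0.19 when scaled by library size only. With i2 taken out, the rest of the gene was at 202, 154, 175 and 190 CPM in the endurant frogs, against 95.8, 75.6, 125 and 322 CPM in the burst-performant frogs. In TPM the total was 698, 366, 382 and 648 in the endurant frogs, against 373, 477, 467 and 819 in the burst-performant frogs, and frogs B, C and F were no longer below the endurant range.

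By counts, which favour long isoforms, LOC108697262 was measured almost wholly by i2 and i4, which held between 97.9 and 99.2% in every frog. By TPM they held less, as in frog F, with 44.1% of the gene in i2 and 44.0% in i4. The balance between them differed between the groups: by TPM, i2 was ahead in all endurant frogs and in frog H, i4 was ahead in frogs B and C, and frog F was close to even, with 250.3 TPM of i4 and 250.6 TPM of i2. The called isoform i4 had 835, 455, 1474 and 1275 estimated counts in endurant frogs (A, D, E, G), against 9919, 8804, 4231 and 953 in burst-performant frogs (B, C, F, H). In CPM it had 101, 100.02, 89.0 and 117 in the endurant frogs, against 764, 1250, 269 and 266 in the burst-performant frogs. The groups did not overlap, with means of 102 ± 11.3 CPM in endurant frogs and 637 ± 471 CPM in burst-performant frogs (SD, n = 4 each), and the fitted log2 fold change was −2.65 (SE 0.54). The endurant frogs were close to each other, whereas frogs B and C stood well above frogs F and H.

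Isoform i2 of LOC108697262 ran the other way. It had 463, 589, 413 and 591 CPM in endurant frogs (A, D, E, G), against 44.1, 71.9, 254 and 442 CPM in burst-performant frogs (B, C, F, H). The groups overlapped only in that frog H was above frog E. The means were 514 ± 90.0 CPM in endurant frogs and 203 ± 185 CPM in burst-performant frogs (SD, n = 4 each), with a fitted log2 fold change of 1.34 (SE 0.66), and i2 was not called by edgeR, DESeq2 or limma. In TPM the groups did not overlap, although the lowest endurant frog, E, had 300.2 TPM and the highest burst-performant frog, H, had 289 TPM.

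**Figure D2:**
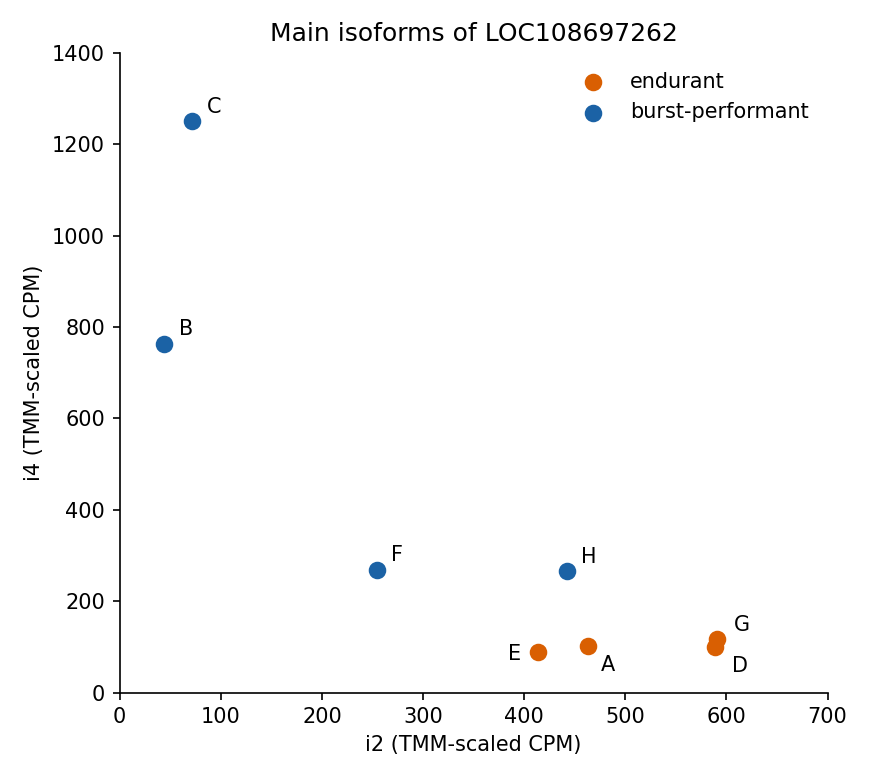
Each point is a frog, with the level of LOC108697262 isoform i2 on the x axis and of isoform i4 on the y axis, both in TMM-scaled CPM. The 4 endurant frogs lie together with 413 to 591 CPM of i2 and 89.0 to 117 CPM of i4, and the burst-performant frogs run from H, near them, to B and C at 44.1 and 71.9 CPM of i2.

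As a share of the gene, i4 held 17.8, 14.4, 17.4 and 16.2% in endurant frogs (A, D, E, G), against 93.4, 93.8, 50.4 and 37.2% in burst-performant frogs (B, C, F, H). The endurant shares spanned a narrow range, with a mean of 16.4 ± 1.54% against 68.7 ± 29.3% in burst-performant frogs (SD, n = 4 each). Isoform i2 held 81.4, 84.6, 80.8 and 82.1% in the endurant frogs, against 5.39, 5.39, 47.6 and 61.7% in the burst-performant frogs. By TPM, i4 held 14.6 ± 1.38% of the gene in endurant frogs and 63.6 ± 29.0% in burst-performant frogs (SD, n = 4 each), and the groups did not overlap on that scale either.

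**Figure D3:**
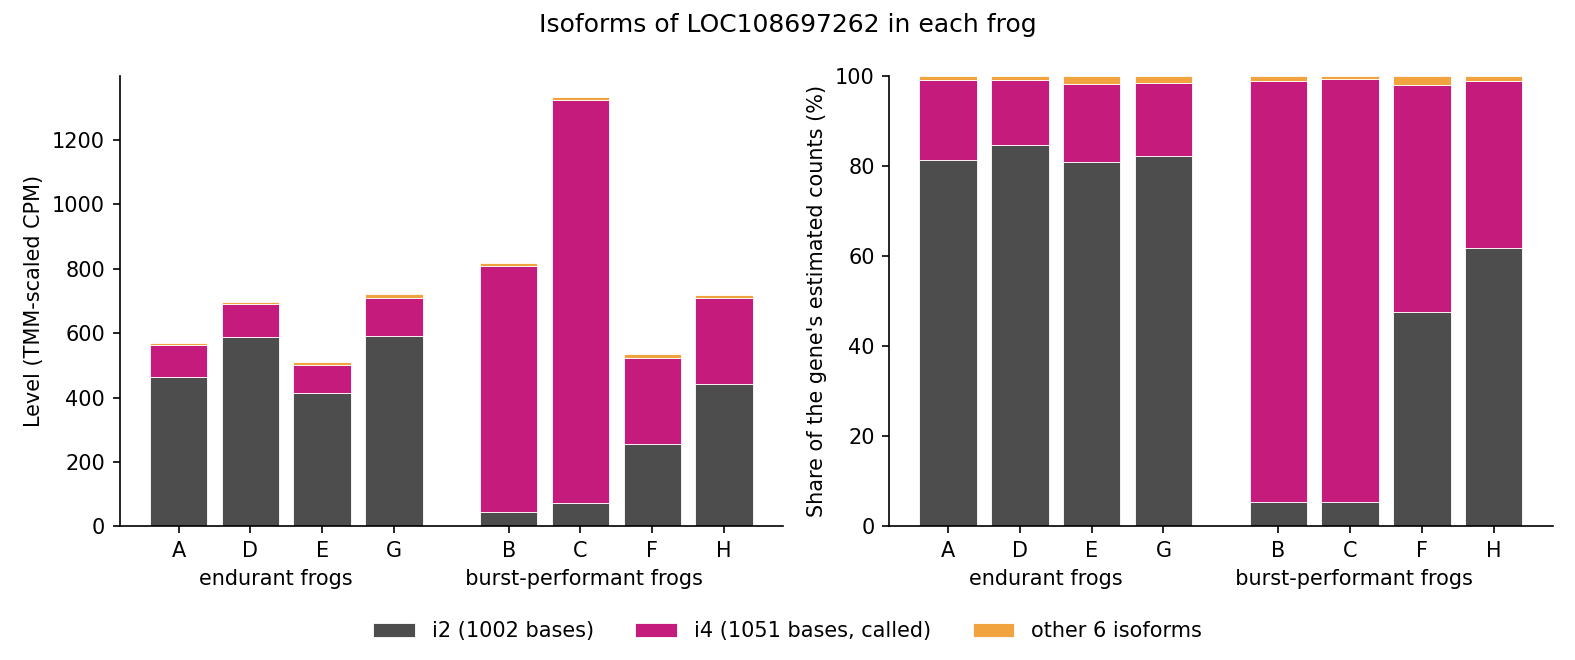
Bars stack isoforms i2, i4 and the other 6 isoforms of LOC108697262 in each frog, endurant frogs on the left of each panel, as TMM-scaled CPM in the left panel and as a percentage of the gene's estimated counts in the right panel. Isoform i4 held 14.4 to 17.8% in the endurant frogs and 37.2 to 93.8% in the burst-performant frogs.

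The other 6 isoforms of LOC108697262 held between 0.758 and 2.06% of its counts. By TPM, which gives short isoforms more weight, i7 alone reached 5.53% of the gene and i8 alone 8.05% in the frog where each was highest. Of the 6, i7 and i8 passed the filter on low values, with fitted log2 fold changes of 0.21 (SE 0.89) and −0.35 (SE 0.38). Isoforms i1, i3, i5 and i6 did not pass it and had 6.4 to 21.1 estimated counts over all 8 frogs together.

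The sum of i2 and i4 differed less between the groups than either isoform. It was 564, 689, 502 and 708 CPM in endurant frogs (A, D, E, G), against 808, 1322, 524 and 708 CPM in burst-performant frogs (B, C, F, H). The LOC108697262 total was 569, 696, 511 and 720 CPM in the endurant frogs, against 817, 1332, 535 and 717 CPM in the burst-performant frogs. Frogs B and C were above every endurant frog, and frogs F and H were within the endurant range. The means were 624 ± 100 CPM in endurant frogs and 850 ± 342 CPM in burst-performant frogs (SD, n = 4 each), and the fitted log2 fold change was −0.46 (SE 0.32), or −0.15 without frog C. In TPM the total was 504, 577, 408 and 702 in the endurant frogs, against 596, 818, 568 and 490 in the burst-performant frogs. With i4 taken out, the rest of the gene was at 468, 596, 422 and 603 CPM in the endurant frogs, against 53.7, 81.8, 265 and 451 CPM in the burst-performant frogs.

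**Figure D4:**
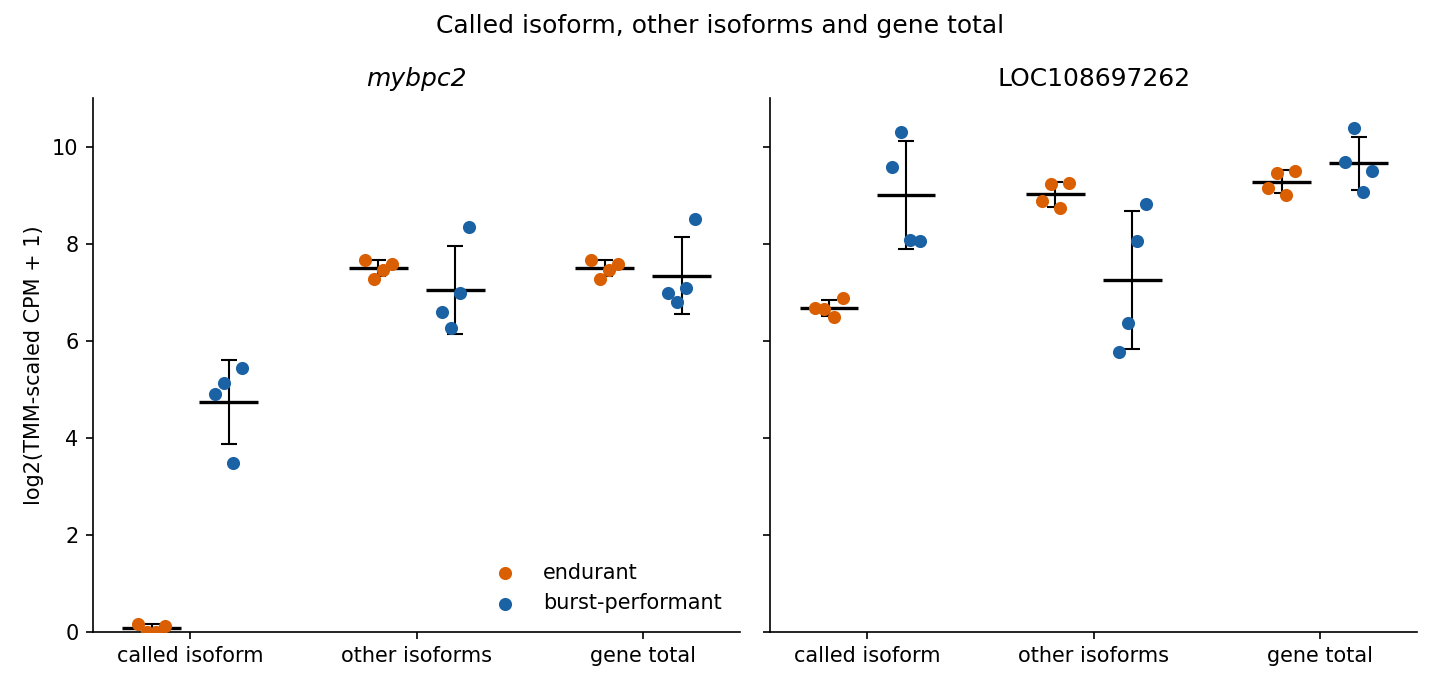
Points are frogs on a log2(TMM-scaled CPM + 1) scale, endurant on the left of each pair and burst-performant on the right, for the called isoform, the other isoforms together and the gene total of *mybpc2* (left panel) and LOC108697262 (right panel). Thick lines and bars are the mean and SD of 4 frogs; the groups are apart in both called isoforms and overlap in both totals.

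How these members stood among all features depended on the test. Of the 12 isoforms, 8 passed the filter on low values and were tested. Under edgeR's exact test with the study's thresholds, 2 of these 8 were called as higher in burst-performant frogs, beside 48 of the 55631 transcripts tested (0.0863%). These 2 are the isoforms that the choice rests on. Under edgeR's quasi-likelihood test with the same thresholds, 0 of the 8 isoforms and 0 of the 55631 transcripts (0%) were called, with 2038 transcripts at an unadjusted p below 0.05. DESeq2 called 3 of the 8 as higher in burst-performant frogs, *mybpc2* i2 and i4 and LOC108697262 i4, beside 69 of the 55631 transcripts fitted (0.124%). Isoform i2 of *mybpc2* was the 1 member called by the quasi-likelihood test with no filter on low values (8 of 211305 higher in burst-performant frogs, 0.00379%), by limma on log2(TPM + 1) (2 of 55631, 0.0036%) and by limma on log2(TPM + 0.1) (3 of 55631, 0.00539%). Every one of these tests used the contrast and the frogs that chose the genes, so the calls of members are no further support. In either direction, the exact test called 109 transcripts and DESeq2 called 153. Among transcripts called as higher in burst-performant frogs, the pair nearest the FDR threshold of 0.05 on the inside had values of 0.0481 and 0.0484, and the nearest pair outside both had 0.0505.

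Of the 8 isoforms tested, 3 had groups that did not overlap (*mybpc2* i2 and i4 and LOC108697262 i4), all higher in burst-performant frogs, beside 1604 of the 55631 transcripts in either direction (2.88%). For *mybpc2* i4 this held for the values as given, not beyond the limit for a count of 0 in frog D. The choice of genes used this contrast, so nothing is read from the count. The fitted log2 fold change was above 0 in 3 of the 8 and below 0 in 5, with a median of −0.31 beside 0.01 over all transcripts tested. Neither gene total was called by the quasi-likelihood test, which called 0 of 35656 totals. The exact test called neither of them, beside 45 of 35656 totals (0.126%). Neither of these 2 totals had groups that did not overlap, beside 1069 of 35656 totals (3%).

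The order of the frogs differed between the genes. The ratio of LOC108697262 to *mybpc2* in TPM was 0.723, 1.58, 1.07 and 1.08 in endurant frogs (A, D, E, G), against 1.597, 1.71, 1.22 and 0.598 in burst-performant frogs (B, C, F, H), with overlapping groups. By CPM, frog C was highest in LOC108697262 and lowest in *mybpc2*, whereas frog H was highest in *mybpc2* and in the middle of the order in LOC108697262. By TPM, frogs C and H again had the highest LOC108697262 and *mybpc2* totals, but frog D was lowest in *mybpc2* and frog H was next to lowest in LOC108697262.

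The relation of the gene totals to the performance traits was examined within groups, because the traits formed the groups and the groups chose the genes. After removing each group's mean, log2(CPM + 1) of the *mybpc2* total against velocity gave Pearson's r = −0.54 (exact permutation within groups, 2-sided, p = 0.181, adjusted over 4 relations 0.528) and Spearman's rho = −0.50 (p = 0.188, adjusted 0.382), over n = 8 frogs. Against acceleration r was −0.29 (exact permutation p = 0.549, adjusted 0.618) and rho was −0.02 (p = 0.981, adjusted 0.981). For the LOC108697262 total, r was 0.25 against velocity (exact permutation p = 0.618, adjusted 0.618) with rho = 0.30 (p = 0.503, adjusted 0.671). Against acceleration r was 0.58 (exact permutation p = 0.264, adjusted 0.528) with rho = 0.57 (p = 0.191, adjusted 0.382). None of the 4 relations passed the threshold.

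Each of the 4 relations changed sign when 1 frog was left out. Without the 2 frogs farthest from the median of the trait, r was −0.65 for *mybpc2* and velocity and −0.033 for *mybpc2* and acceleration. For LOC108697262 it was 0.89 with velocity and −0.024 with acceleration. For velocity the frogs left out were D and F, where F tied with frog C, which was kept. None passed the threshold by exact permutation, but 6 frogs allow only 36 pairings, too few for a lone relation to pass after adjustment. The *mybpc2* and velocity value was 0.30 without frog H, which had the highest *mybpc2* total and the lowest velocity of its group. The LOC108697262 and acceleration value was −0.23 without frog C, which was highest in both. Without the same frog, *mybpc2* and acceleration gave 0.14, and LOC108697262 and velocity gave −0.076. Pooled over the groups and given as a description, r was −0.45 and −0.32 for *mybpc2* against velocity and acceleration, and 0.50 and 0.66 for LOC108697262.

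For time and distance to exhaustion the groups did not overlap, no correlation was computed, and the frogs are described in order, with totals in CPM. Among the endurant frogs, E moved longest and farthest and D shortest on both, while *mybpc2* was highest in A and lowest in D, and LOC108697262 was highest in G and lowest in E. Among the burst-performant frogs, F moved for the longest time and H for the shortest, while C covered the most distance and B the least. Frog F had the lowest LOC108697262 total of its group, and frog H the highest *mybpc2* total. For the isoforms, the burst-performant frogs with the highest share of i4 in LOC108697262, B and C, were in the middle of their group in time and at either end in distance.

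By Pearson's r of log2(CPM + 1) over the 8 frogs, with group means kept, the *mybpc2* total was closest to TR60291|c1_g1 (r = 0.96) and TR5130|c3_g4 (r = 0.93). They were the only 2 of 6125 genes with a mean of at least 10 CPM that passed 0.9. As the highest of so many values they were not tested. For LOC108697262, 22 genes passed 0.9, led by TR15767|c1_g2 (r = 0.96) and TR15156|c0_g1 (r = 0.95). The tables give no names for these. With 8 frogs, of which H lay far from the rest in *mybpc2* and C in LOC108697262, such values describe a pattern across libraries. All genes of a frog share its depth and scaling.

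Other Trinity genes share the TR number that opens the names of these genes, though some carry another c number. The TR number of *mybpc2* was shared by 1 other gene, TR20986|c0_g1, a single transcript of 344 bases. It had 10.6 ± 4.70 CPM in endurant frogs and 11.3 ± 6.04 CPM in burst-performant frogs (SD, n = 4 each). The TR number of LOC108697262 was shared by 8 others with 28 transcripts. Their sum was 3124 ± 1159 CPM in endurant frogs and 3947 ± 2307 CPM in burst-performant frogs (SD, n = 4 each). Most of it was in TR3354|c3_g3, with 1813 ± 629 CPM in endurant frogs and 2282 ± 1274 CPM in burst-performant frogs, and in TR3354|c3_g1, with 1259 ± 528 CPM in endurant frogs and 1607 ± 1024 CPM in burst-performant frogs (SD, n = 4 each). In all 4 of these values the groups overlapped. Of the others named TR3354|c4, as LOC108697262 is, TR3354|c4_g4 was highest, with 35.0 ± 7.35 and 39.0 ± 15.4 CPM in endurant and burst-performant frogs. Only TR3354|c4_g3 had groups that did not overlap, with 0.932 ± 0.112 and 0.343 ± 0.266 CPM, beside 1069 of 35656 tested totals (3%). These values are low, as 3 counts in frog H came to 0.838 CPM. The tables do not name these genes either.

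A list of 7 further filament and calcium-handling genes was followed, each joined to a transcript that the study had called and annotated. The list does not hold every such gene that the study names (*lrrc16a*, *flnb*, *camk2a* and *abi2* are not analysed here), so its directions were set by the choice and are no evidence. Called transcripts of 6 were higher in burst-performant frogs (*tmod4*, a cap of the thin filament's pointed end, *arpc4*, a subunit of the actin-branching ARP2/3 complex, *ocm4.1*, a parvalbumin-family calcium buffer, *lmo7*, *fsd2* and LOC108701289), and that of 1, *rcsd1*, a CapZ-interacting protein, was higher in endurant frogs. None of the 7 was called by the quasi-likelihood test, which called 0 of 55631 transcripts. Of the gene totals of these 7, those of LOC108701289 and *fsd2* were called by the exact test, beside 45 of 35656 totals (0.126%). Each of these has a single transcript, so its total is the called transcript and its call was set by the choice. Only *arpc4* had groups that did not overlap, beside 1069 of 35656 totals (3%). It had 29.9 ± 6.24 CPM in endurant frogs and 41.9 ± 3.90 CPM in burst-performant frogs (SD, n = 4 each).

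As in *mybpc2*, an isoform far apart between the groups could stand beside a total that was not. The isoforms were chosen for their difference between the groups, so a smaller difference in the total is no evidence of a pattern. The *tmod4* isoform had a fitted log2 fold change of −11.73 and its gene total one of −0.43, and for *lmo7* these were −2.38 and −0.05. For *rcsd1* the isoform was at 8.40 and the total at −0.38, with the opposite sign. The groups overlapped in the totals of *tmod4*, *lmo7* and *rcsd1*. The *ocm4.1* total was 5440 ± 639 CPM in endurant frogs and 11226 ± 4724 CPM in burst-performant frogs (SD, n = 4 each), with a log2 fold change of −1.06 and overlapping groups.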

How the data were processed

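One library per frog was sequenced as paired ends. The authors trimmed the reads with Trimmomatic, assembled the reads of all frogs together with Trinity, and estimated abundances with Kallisto. The sources used here give no versions of these. In the deposited tables, estimated counts are read pairs per transcript, shared among transcripts that match the same pair, and hold no correction for length or depth. Kallisto's TPM, also deposited, divides each count by the effective length and scales every frog to 1000000, which removes depth. Lengths in bases are also in the deposited tables. The study states that it ran edgeR on TMM-normalised TPM values. The exact test run here on rounded estimated counts called 109 transcripts, the number that the study reports.

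Estimated counts were rounded and fitted with edgeR 4.0.16 in R 4.3.3 (TMM, glmQLFit, glmQLFTest) after keeping transcripts that passed a CPM of 1 in 2 or more frogs, and likewise on counts summed per gene with factors of their own. Calls needed an FDR of at most 0.05 (Benjamini-Hochberg) and a log2 fold change no smaller than 2 in size, taken as endurant minus burst-performant. The SE beside a fitted log2 fold change is its size divided by the square root of the quasi-likelihood F statistic, so it restates that test. CPM of a total is the sum over its isoforms. DESeq2 1.42.0, limma 3.58.1 on log2(TPM + 1), other scalings, no filter and each frog left out in turn were alternatives. Permutations enumerated all 576 pairings within groups (Python 3.11.15, numpy 2.4.6, scipy 1.17.1, pandas 2.3.3, with figures by matplotlib 3.10.9). Trait values were taken from the article as input and are not printed. Intervals are Clopper-Pearson or exact ratios of counts at 95%. Limits for a count of 0 use 3 counts.

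Symbols were joined to transcripts through the exact test's fold change and FDR, since the tables name no genes. Named singly were the isoforms called by the exact test and those with at least 10% of their gene in at least 1 frog, the 2 most alike genes by Pearson's r, and the pair of transcripts on either side of the FDR threshold. The members and lists were chosen with earlier results of these data known. On simulated counts with 200 changed features, the quasi-likelihood test recovered 54% of changed transcripts with 4 false calls. The exact test recovered 83% with 116 false calls, and DESeq2 88% with 197 false calls. On gene totals, the quasi-likelihood test recovered 98.5% of changed features with 11 false calls. The exact test recovered 99% with 66 false calls, and DESeq2 98.5% with 50 false calls. Every changed feature was given a log2 fold change of 4 in size and was drawn from features above a set mean CPM. The counts were simulated without TMM factors. These rates are for that size of change, and other sizes were not tested. A planned chi-square of isoform by frog counts is not reported, since it sets differences between animals against counting error alone. The 8 frogs are separate animals with 1 library each, so preparation and animal cannot be told apart.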

Additional observations from a re-analysis of the deposited data

Results flagged for a closer look

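Among 30 sets of 4 frogs checked for a value far from the others, 4 held one by Dixon's criterion, which chance alone meets in about 1 set of 20. The sets were not independent, since the CPM and share of an isoform rest on the same count. Shares within a gene also depend on each other, so no excess over that rate is read from the 4. All 4 were of *mybpc2* in burst-performant frogs. Frog C had 3.54% of the gene's counts in isoform i1, while the other 3 burst-performant frogs had between 48.1 and 53.0%. The same frog had 24.1 CPM of isoform i4, against 0.255 to 3.46 CPM in the others, which was 22.0% of its *mybpc2* counts against 0.191 to 2.76%. Frog H had a *mybpc2* total of 364 CPM, while the other burst-performant frogs had 110 to 135 CPM. Frog H was the shallowest library, with 4449192 estimated counts. Frog C held few estimated counts for the read pairs that the study reported for it.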

How the results depend on the processing

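With a frog left out, the fitted log2 fold change was −9.32 to −8.23 for *mybpc2* i2 and −2.90 to −2.09 for LOC108697262 i4. Their direction was the same under every tool, scaling and filter tried. Both were chosen by this contrast and their groups did not overlap, so a steady direction was set by the choice and is no evidence. The size of the *mybpc2* i2 value was −6.86 on log2(TPM + 1), a scale on which a pseudocount of 1 shrinks changes of low values. Leaving out a frog gave −0.23 to 0.56 for the *mybpc2* total, with 0.56 without frog H, and scaling by library size only gave 0.19. Leaving out a frog gave −0.63 to −0.15 for the LOC108697262 total, with −0.15 without frog C. The difference in the share of i2 in *mybpc2*, −18.3 percentage points by counts, was −32.0 by TPM and −21.9 to −14.1 with a frog left out, and that of i4 in LOC108697262, −52.3, was −62.8 to −43.9. The quasi-likelihood count of transcripts called was 0 with any frog left out, against 109 by the exact test, 153 by DESeq2 and 13 with no filter. For gene totals the count was 0 (0 to 1 with a frog left out, 1 without frog C), against 45 by the exact test, 33 by DESeq2 and 730 with no filter. The cause of these differences was not tested.

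Relations with traits turned sign under some settings. With a frog left out, r was −0.83 to 0.30 for *mybpc2* and velocity, −0.46 to 0.14 for *mybpc2* and acceleration, −0.076 to 0.70 for LOC108697262 and velocity, and −0.23 to 0.80 for LOC108697262 and acceleration. On log2(TPM + 1), r for *mybpc2* and acceleration was 0.24, and without the 2 frogs farthest from the median acceleration r for LOC108697262 was −0.024. Of 116 alternative values of the fold changes, shares and relations, 10 turned sign, 4 of the *mybpc2* total and 6 of the relations. Those of the called isoforms and of their shares were held in sign by the choice. No relation passed the threshold under any setting, though with only 6 frogs a lone relation could not have passed. Values that kept their sign could still move, as with 0.25 for LOC108697262 and velocity, which was 0.89 without the 2 frogs farthest from the median velocity. Those 2 were D and F, and the 0.89 rests on keeping frog C, which tied with F in velocity. No paired analysis was possible because the frogs carry separate letters and the groups share no replicate numbers.

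In the libraries with the fewest estimated counts, D and H, 3 counts came to 0.659 and 0.838 CPM, the most that a count of 0 allows there. Isoforms of a de novo assembly are short and share read pairs, so their shares rest on Kallisto's assignment. With 4 frogs in each group, the spread is that of these 8 wild males only.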
